A study of Homo sapiens with 36 samples.

Results

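The genes described here are EPAS1 and 9 further genes of the hypoxia pathway (HIF1A, ARNT, VEGFA, CA9, EGLN1, EGLN3, BNIP3, ADM and ANKRD37), 10 of the 57820 genes in the count table. They were chosen by the EPAS1 counts of these libraries, which rose strongly in resistant cells deprived of serine and glycine. The values of cis -SG against cis cells were therefore used by the choice, and are given below as a description with no test. RNA-seq was performed on A2780, a human ovarian cancer cell line. The study compared parental cells (wt), an isogenic resistant line (cis), which the study describes as made by long exposure of the parental cells to cisplatin, and cis SSP cells. The latter grew out of cis cells kept under serine and glycine deprivation and had regained serine synthesis. Each of the 3 lines was cultured with serine and glycine (complete medium) or deprived of both (-SG), and with or without carboplatin (carbo). Carboplatin is a platinum drug that crosslinks DNA, and the labels give its dose as 6 M, a unit repeated here only as written. For its metabolite tracing of wt and cis cells the study states 6 µM. This gives 12 conditions with 3 libraries each, 36 in all, with 13074937 to 20441582 counts on genes per library. According to the legends of the study these replicates are technical, so p-values measure only the spread between these libraries and not that between independent cultures. All samples are bulk RNA, in which fewer cells with a transcript and less of it per cell cannot be told apart.

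EPAS1 encodes HIF-2α and HIF1A encodes HIF-1α, the oxygen-labile subunits of the hypoxia-inducible factors. Each pairs with ARNT (HIF-1β) and binds a short core motif in its target genes. In the presence of oxygen, prolyl hydroxylases such as PHD2 (EGLN1) and PHD3 (EGLN3) mark the α subunits for recognition by VHL and degradation, so their activity is set mainly at the protein level, which RNA-seq does not measure. VEGFA (a growth factor for blood vessels), CA9 (a carbonic anhydrase of the cell surface), BNIP3 (a mitochondrial protein that promotes mitophagy), ADM (the vasodilator peptide adrenomedullin) and ANKRD37 are known targets, and EGLN1 and EGLN3 are themselves induced in hypoxia. No label gives an oxygen level, and none of the groups is a hypoxia treatment.

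Some libraries stood apart. In library 25 (cis SSP replicate 1) and library 32 (cis SSP -SG replicate 2), short genes were high and long genes low against the other libraries of their condition. With genes split by exon length into 4 bins of equal size, the median log2 difference was 0.45 in both libraries over the shortest bin and -0.40 in both over the longest. Both also held low levels of HIF1A, with 70 and 77.7 CPM (counts scaled to library size by TMM over the 36 libraries) against 133 to 144 in the other libraries of these conditions, and of ARNT, with 120 and 124 against 190 to 196. Results that rest on them are given with and without them. Libraries 23 and 24 (cis -SG carbo replicates 2 and 3) had 17.9% and 14.9% of their reads on no gene, against at most 9.31% elsewhere. Library 11 (wt -SG carbo replicate 2) differed from libraries 10 and 12 of its condition by a mean chi-square of 25.6 and 24.6. Libraries 10 and 12 were the closest of all 36 pairs within conditions. With library 11, edgeR called 104 of 14454 genes for deprivation in wt cells under carboplatin, and without it 1583 of 14715. Most results that use wt -SG carbo libraries are given only with library 11 included. Of the 7 markers of ovarian cancer epithelium, 3 (PAX8, MUC16 and KRT7) were under 1 CPM in every condition. The summed level of that list was 1.78 to 2.37 CPM in wt, 11.7 to 13 CPM in wt carbo, 16.4 to 19.6 CPM in cis and 43.4 to 46 CPM in cis -SG libraries. Endothelial markers, a cell type known for strong EPAS1 use, summed to at most 0.911 CPM in any library, and leukocyte markers to at most 0.305 CPM. The 4 fibroblast markers summed to 466 to 471 CPM in wt, 1054 to 1064 CPM in wt carbo, 18.2 to 22 CPM in cis and 9.04 to 11.1 CPM in cis -SG libraries. In cis SSP libraries they summed to 262 to 348 CPM, with carboplatin to 246 to 250 CPM, under deprivation to 284 to 414 CPM and with both to 270 to 283 CPM, all above every cis library (at most 22 CPM). The part of these lists in the results was not tested.

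The 250 bases before the RefSeq start of each gene show how far the members share the core motif that hypoxia-inducible factors recognise. The sequences below come from RefSeq's promoter table (GRCh38.p14), which held 9 of the 10 genes (VEGFA has no entry). They were placed in GRCh37, the build of the counts, by exact match, and are written on the strand of the gene. The RefSeq start lies inside the GENCODE gene whose coordinates are given below, by 3740 bases for EPAS1, 820 for ANKRD37 and 511700 for EGLN3, and is the GENCODE start for ADM and CA9. ACGTG and GCGTG were searched on both strands, and each match is in capitals. A CACGTG holds ACGTG on each strand and counts as 2 matches. Shown are EPAS1 and ADM, which both rose with deprivation in cis cells under carboplatin, CA9 and ANKRD37, which fell with deprivation in wt cells, and EGLN3, which has no match. The windows are chr2:46524296-46524545 (plus strand) for EPAS1, chr11:10326370-10326619 (plus) for ADM, chr9:35673675-35673924 (plus) for CA9, chr4:186317745-186317994 (plus) for ANKRD37 and chr14:34420281-34420530 (minus) for EGLN3.
EPAS1: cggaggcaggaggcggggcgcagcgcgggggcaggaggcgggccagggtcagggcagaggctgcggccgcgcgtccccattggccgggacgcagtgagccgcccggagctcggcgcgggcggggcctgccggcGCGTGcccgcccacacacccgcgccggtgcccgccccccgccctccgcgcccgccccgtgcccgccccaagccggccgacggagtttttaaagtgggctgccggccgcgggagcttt
ADM: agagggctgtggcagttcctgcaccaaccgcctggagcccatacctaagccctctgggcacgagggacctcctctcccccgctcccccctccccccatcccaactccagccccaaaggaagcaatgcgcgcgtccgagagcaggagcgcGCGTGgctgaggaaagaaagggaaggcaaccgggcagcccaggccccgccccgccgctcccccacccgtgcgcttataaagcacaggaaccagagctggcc
CA9: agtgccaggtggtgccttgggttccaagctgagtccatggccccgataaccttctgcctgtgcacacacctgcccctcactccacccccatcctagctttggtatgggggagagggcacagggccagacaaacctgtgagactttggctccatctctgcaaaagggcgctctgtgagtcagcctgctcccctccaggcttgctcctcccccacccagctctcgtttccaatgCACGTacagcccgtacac
ANKRD37: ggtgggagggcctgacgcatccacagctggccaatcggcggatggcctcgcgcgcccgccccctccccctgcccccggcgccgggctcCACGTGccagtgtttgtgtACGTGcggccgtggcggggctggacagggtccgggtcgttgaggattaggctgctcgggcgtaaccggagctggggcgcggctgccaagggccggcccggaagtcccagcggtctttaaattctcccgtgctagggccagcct
EGLN3: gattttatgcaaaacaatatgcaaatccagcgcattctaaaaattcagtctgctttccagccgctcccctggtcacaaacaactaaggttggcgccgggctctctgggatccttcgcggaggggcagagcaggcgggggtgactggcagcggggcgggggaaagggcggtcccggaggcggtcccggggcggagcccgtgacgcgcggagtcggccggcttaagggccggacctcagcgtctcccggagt
ACGTG was found before 4 of the genes, and either motif before 7 of the 9 with a window. The match before EPAS1 starts at -117, that before ADM at -101 and that before CA9 at -18, counted from the RefSeq start, and ANKRD37 has 3 matches, at -162, -161 and -143. Of all 35116 windows of this length in the table, 18.5% hold ACGTG, 32.2% hold GCGTG and 43.2% hold either. A match describes the letters and not a bound site.

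EPAS1 (ENSG00000116016, chr2:46520806-46613836 in GRCh37, plus strand) was a low transcript whose level varied widely over the conditions. In cis libraries it was counted 6, 6 and 6 times, or 0.391, 0.321 and 0.334 CPM, and in cis -SG libraries 300, 318 and 289 times, or 15.3, 16.6 and 14.7 CPM. The libraries of these conditions, which the choice of genes used, did not overlap, and the fitted log2 fold change was 5.52. With carboplatin added, cis -SG carbo libraries held 13.2, 12.9 and 13.3 CPM, and cis carbo libraries 0.86, 0.907 and 0.31 CPM (15, 12 and 5 counts). In wt libraries EPAS1 was at 0.886, 0.826 and 0.995 CPM, and in wt -SG libraries at 3.65, 4.19 and 3.73 CPM. With the drug it was at 17.5, 19.2 and 17.6 CPM in wt carbo libraries and at 19.7, 14.5 and 16.1 CPM in wt -SG carbo libraries. High EPAS1 was thus seen in wt cells given carboplatin, in either medium, and in cis cells deprived of serine and glycine, with or without the drug. EPAS1 stayed under 2 CPM in every library of cis SSP cells, with means of 0.321 ± 0.0884 CPM (SD, n = 3) in complete medium, 0.467 ± 0.332 under deprivation, 1.46 ± 0.317 with carboplatin and 1.4 ± 0.377 with both.

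**Figure D1:**
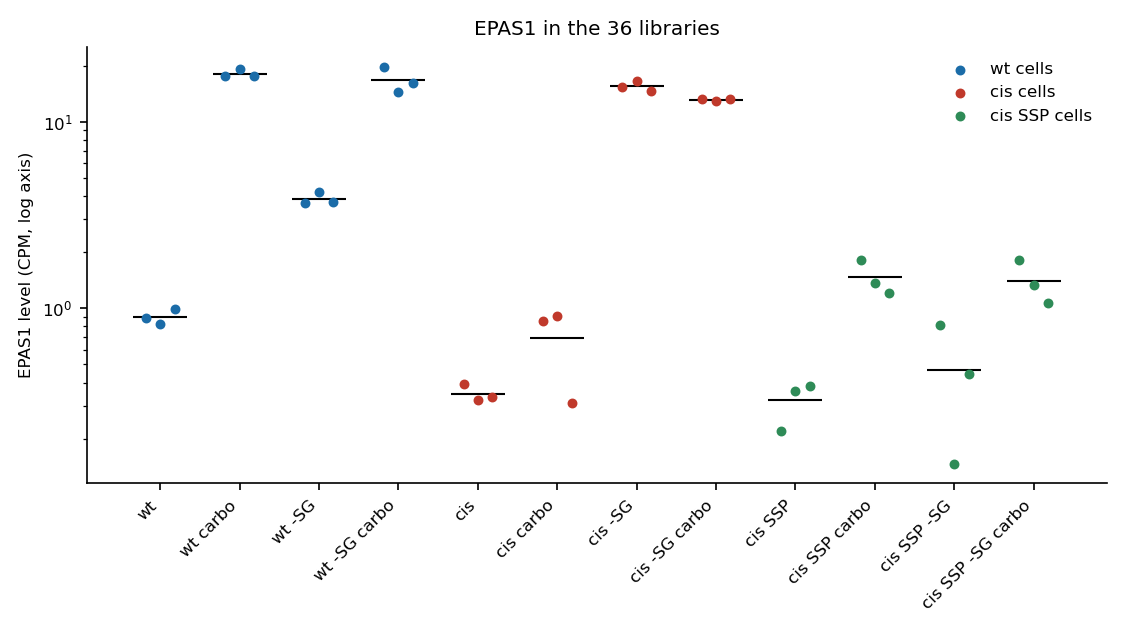
EPAS1 level in CPM (log axis) in each of the 36 libraries by condition. Each point is a library, each line the mean of 3, and colours mark wt, cis and cis SSP cells. The 12 libraries of wt carbo, wt -SG carbo, cis -SG and cis -SG carbo lie between 12.9 and 19.7 CPM, and those of every other condition at or below 4.19 CPM.

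Ordered by mean, EPAS1 ran from wt carbo (18.1 CPM) over wt -SG carbo (16.8), cis -SG (15.5), cis -SG carbo (13.1), wt -SG (3.85), cis SSP carbo (1.46), cis SSP -SG carbo (1.4), wt (0.902), cis carbo (0.692), cis SSP -SG (0.467) and cis (0.348) to cis SSP (0.321). The libraries of wt carbo overlapped with those of wt -SG carbo, and these with cis -SG. So did cis SSP carbo with cis SSP -SG carbo, and every neighbouring pair from wt down to cis SSP. The conditions cis -SG, cis -SG carbo, wt -SG and cis SSP -SG carbo did not overlap with the condition that follows them in this order. Per kilobase of exon, mean EPAS1 stood at 0.0478 CPM in cis and 2.13 CPM in cis -SG cells, where HIF1A was at 23.8 and 14.4 CPM per kilobase. In wt cells the levels per kilobase were 0.124 CPM for EPAS1 and 51 CPM for HIF1A.

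The response of EPAS1 to deprivation was then fitted without the cis and cis -SG libraries. The choice rested on a rise in deprived resistant cells, and earlier results of these data were known. The fits in cis cells under carboplatin are therefore not independent of the choice. In wt cells without carboplatin EPAS1 rose 4.25-fold (log2 fold change 2.09 ± 0.19 SE, adjusted p = 2.05e-08, edgeR). In cis cells under carboplatin it went from 15, 12 and 5 to 238, 219 and 239 counts, 19.5-fold higher (4.29 ± 0.20), with no overlap between the 3 deprived and the 3 fed libraries. Here EPAS1 passed the filter on low counts through the deprived libraries alone, where it is high, so the fold change is a description of these libraries. In the edgeR fit with no filter the log2 fold change was 4.27, and without libraries 23 and 24 it was 4.31. In wt cells under carboplatin, where EPAS1 was already high, the change was not called (-0.13, 95% interval -0.35 to 0.09). Nor was it called in cis SSP cells under carboplatin (-0.07, 95% interval -0.58 to 0.44). Cis SSP cells without the drug fell below the filter for EPAS1, so no test was made, with 3, 6 and 7 counts in complete medium and 16, 2 and 8 under deprivation. Without libraries 25 and 32 the means of these conditions were 0.372 and 0.626 CPM, over 2 libraries each.

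The responses themselves were then compared between lines, and the EPAS1 comparisons with cis cells share the limit given above. Under carboplatin the deprivation response of EPAS1 was larger in cis than in wt cells by 4.38 ± 0.25 on the log2 scale (interaction term, adjusted p = 4.28e-10), in a fit where EPAS1 passed the filter through both wt conditions as well, and smaller in cis SSP than in cis cells, with a difference of -4.35 ± 0.36 (adjusted p = 2.10e-10). Without carboplatin the difference between cis SSP and wt cells was -1.49 ± 0.57 and did not pass the test (adjusted p = 0.346), nor did it without libraries 25 and 32 (-1.32, adjusted p = 0.0779).

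Carboplatin raised EPAS1 in wt cells 20-fold in complete medium (log2 fold change 4.32 ± 0.14, adjusted p = 2.20e-138) and 4.34-fold under deprivation (2.12 ± 0.14, adjusted p = 1.01e-06), where it started from a higher level. In cis SSP cells in complete medium EPAS1 was counted 3, 6 and 7 times without the drug and 35, 25 and 21 times with it, 4.49-fold higher (2.17 ± 0.31). It passed the filter through the carboplatin libraries alone, so this too describes the libraries, and with no filter the adjusted p was 0.0111. With the filter it was called, and this call was lost when any library but library 25 was left out (adjusted p = 0.0986 to 0.131), and held without library 25 (1.98, adjusted p = 9.62e-05). Under deprivation the change in cis SSP cells was 1.5 ± 0.49 and not called, with an adjusted p of 0.229, but was called without library 32 (1.15, adjusted p = 0.0153). Here again EPAS1 passed the filter through the carboplatin libraries alone.

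With both stresses EPAS1 was lower in cis than in wt cells, at 13.1 ± 0.196 against 16.8 ± 2.67 CPM (log2 difference -0.32 ± 0.12, adjusted p = 0.029). That call was lost with DESeq2 (adjusted p = 0.0648), with total counts in place of TMM (-0.19, adjusted p = 0.174), without wt -SG carbo replicate 1 (-0.20, adjusted p = 0.15), and without library 23 (0.0877), library 24 (0.0748) or both (-0.27, adjusted p = 0.276). In the same condition EPAS1 was 9.5-fold lower in cis SSP than in cis cells (-3.25 ± 0.16, adjusted p = 9.28e-11).

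The 4 genes whose pattern was most like EPAS1, by Pearson's r of log2(CPM + 1) over the 12 condition means among genes with a mean of at least 5 CPM, were ZNF655 (r = 0.980), PLEKHF1 (0.979), AOC2 (0.978) and CHRNA4 (0.962). The points share the 36 libraries and their scaling, and no test was made. PLEKHF1 went from 5.39 to 13.2 CPM between cis and cis -SG cells and from 6.33 to 13.8 CPM between wt and wt carbo cells. AOC2 went from 1.87 to 8.52 and from 3.60 to 8.99 CPM. Spearman's rho put none of these genes among its first 4 (MYOM1, NEMF, DMWD and PLXNA1), and Pearson's r over the 36 libraries had AOC2 and CHRNA4 beside MICALL1 and IGFN1.

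HIF1A (ENSG00000100644, chr14:62162231-62214977, plus strand), the other α subunit, rose with EPAS1 in wt cells and fell in deprived cis cells. It was at 263, 266 and 259 CPM in wt libraries, 588, 607 and 592 in wt carbo libraries, and 684, 589 and 675 in wt -SG carbo libraries. Carboplatin thus raised it 2.28-fold in complete medium (log2 fold change 1.19 ± 0.02, adjusted p = 2.18e-301) and 2.06-fold under deprivation (1.04 ± 0.07, adjusted p = 1.08e-06), with no overlap in either. Deprivation alone raised it in wt cells, to 319, 325 and 304 CPM (0.27 ± 0.03, adjusted p = 6.09e-08). In cis libraries HIF1A was at 117, 125 and 126 CPM, 2.17-fold below wt cells (-1.12 ± 0.03, adjusted p = 9.61e-34). With carboplatin it was at 119, 118 and 119 CPM there (-0.03, 95% interval -0.10 to 0.03), and the carboplatin response differed from that of wt cells by -1.22 ± 0.04 (adjusted p = 1.24e-35). Deprived cis libraries held 74.2, 77.1 and 71.9 CPM of HIF1A, a description with a log2 fold change of -0.66. Under carboplatin, where it could be tested, deprivation lowered it 1.49-fold in cis cells, to 77.5, 77.2 and 78.4 CPM (-0.58 ± 0.04, adjusted p = 5.80e-09). That response differed from the response of wt cells by -0.72 ± 0.07 (adjusted p = 3.49e-07), and the response of cis SSP cells was higher than it by 0.63 ± 0.04 (adjusted p = 1.64e-11). With both stresses HIF1A was 8.19-fold lower in cis than in wt cells (-3.03 ± 0.08, adjusted p = 3.41e-11), and 2.07-fold higher in cis SSP than in cis cells (1.05 ± 0.04, adjusted p = 2.87e-12). Without carboplatin it was not called with deprivation in cis SSP cells (0.11, adjusted p = 1.0), but was without libraries 25 and 32 (0.10, adjusted p = 0.0281).

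ARNT (ENSG00000143437, chr1:150782189-150849184, minus strand), the shared partner, ranged from 154 to 258 CPM outside libraries 25 and 32. Deprivation raised it in wt cells from 215, 223 and 223 to 258, 254 and 246 CPM (0.20 ± 0.03, adjusted p = 4.74e-06). It was lower in cis than in wt cells, at 177, 172 and 183 CPM (-0.33 ± 0.03, adjusted p = 1.09e-14). Its change with deprivation under carboplatin was not called in wt (-0.01, 95% interval -0.13 to 0.11), cis (-0.02, -0.09 to 0.05) or cis SSP cells (0.03, -0.03 to 0.09). With both stresses it was higher in cis SSP than in cis cells by 0.11 ± 0.03 (adjusted p = 0.0106), a direction that turned with total counts (-0.02) and a call lost without libraries 23 and 24 (adjusted p = 0.117).

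Of the oxygen sensors, EGLN3 (ENSG00000129521, chr14:34393433-34931980, minus strand) was low in wt cells without carboplatin and high with it. It was at 1.11, 1.32 and 0.523 CPM in wt libraries and at 25.8, 24.2 and 24.4 CPM in wt carbo libraries, 25.4-fold higher (log2 fold change 4.67 ± 0.13). It passed the filter through the carboplatin libraries alone, where it is high, and with no filter the log2 fold change was 4.64 (adjusted p = 9.92e-290, edgeR). Under deprivation, where both conditions passed the filter, it rose from 0.739, 1.06 and 0.836 to 26.1, 30.6 and 26.1 CPM (4.97 ± 0.14, adjusted p = 5.66e-09). The wt carbo libraries did not overlap with the wt libraries in either medium. In cis and cis SSP cells EGLN3 was near the limit of counting, with 1 to 11 counts in any library and at most 0.631 CPM. The fitted difference of its carboplatin response between cis and wt cells, -4.1 ± 0.80, comes from a fit it entered through the wt carbo libraries alone, with 2, 6 and 1 counts in cis and 4, 4 and 4 in cis carbo libraries, and is given as a description. Deprivation alone gave no call for EGLN3 in wt cells (-0.15, 95% interval -0.78 to 0.48). The annotation used here gives EGLN3 a wide locus that overlaps SPTSSA on the same strand, whose mean went from 52.1 to 35.8 CPM between wt and wt carbo cells, opposite to EGLN3.

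EGLN1 (ENSG00000135766, chr1:231499497-231558033, minus strand), the main oxygen sensor of most cells, was at 77.4 to 133 CPM in all 36 libraries. Deprivation lowered it in wt cells from 131, 133 and 124 to 85.4, 88.7 and 87.9 CPM (log2 fold change -0.56 ± 0.03, adjusted p = 4.79e-11), and carboplatin to 108, 104 and 110 CPM (-0.26 ± 0.03, adjusted p = 1.90e-18). With both it was at 128, 124 and 126 CPM, so that carboplatin raised it in deprived wt cells (0.53 ± 0.05, adjusted p = 1.09e-05). In cis cells under carboplatin deprivation raised it, from 90.4, 94.5 and 89 to 106, 97.6 and 102 CPM (0.20 ± 0.05, adjusted p = 0.0017). The deprivation response without the drug was higher in cis SSP than in wt cells by 0.66 ± 0.11 (adjusted p = 0.032). That call was lost in 10 of the 12 fits with a library left out, among them each wt and each wt -SG library (adjusted p = 0.068 to 0.133), with total counts (0.0593) and with no filter (0.263). The call held without library 25 and without library 32.

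VEGFA (ENSG00000112715, chr6:43737921-43754224, plus strand) rose wherever EPAS1 rose in wt and cis cells, on a smaller scale. In wt libraries it was at 93.5, 94.8 and 97.5 CPM, in wt carbo libraries at 179, 172 and 172, and in wt -SG libraries at 112, 104 and 108. The rise was 1.84-fold with carboplatin (log2 fold change 0.88 ± 0.03, adjusted p = 2.81e-141) and 1.13-fold with deprivation (0.18 ± 0.04, adjusted p = 0.000286). In cis libraries VEGFA was at 104, 101 and 101 CPM and in cis -SG libraries at 204, 197 and 209, a description with a log2 fold change of 1.05. Under carboplatin the deprivation response of cis cells could be tested, and VEGFA rose 1.58-fold from 111, 109 and 116 to 178, 170 and 172 CPM (0.66 ± 0.04, adjusted p = 2.48e-09). Cis SSP cells, where EPAS1 stayed low, also raised VEGFA. Under carboplatin deprivation increased it 1.25-fold (0.32 ± 0.04, adjusted p = 8.37e-06), less than in cis cells (difference -0.33 ± 0.06, adjusted p = 1.87e-05). Without the drug it was at 63.8, 66.8 and 67.4 CPM in complete medium and at 97.3, 96.8 and 97 CPM under deprivation. These libraries did not overlap, yet the change of 0.56 ± 0.11 was not called (adjusted p = 0.338) in a fit that includes libraries 25 and 32, and was called without them (0.55, adjusted p = 9.91e-11). VEGFA was lower in cis SSP than in cis cells in complete medium (-0.65 ± 0.09, adjusted p = 0.00373) and with both stresses (-0.89 ± 0.04, adjusted p = 6.94e-11). In complete medium the call held whichever library was left out, library 25 among them (-0.68 to -0.59).

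ADM (ENSG00000148926, chr11:10326620-10328944, plus strand) separated the lines widely. It was at 35.4, 34.2 and 35.5 CPM in wt libraries against 3.65, 3.15 and 2.78 in cis libraries, 11.2-fold lower (log2 difference -3.48 ± 0.09, adjusted p = 1.85e-33). Within that lower range deprived cis libraries held 6.73, 5.75 and 5.99 CPM, a description with a log2 fold change of 1.02. Under carboplatin ADM rose with deprivation in cis cells from 3.84, 3.86 and 3.16 to 6.0, 6.9 and 5.72 CPM (0.82 ± 0.14, adjusted p = 0.000147). In wt cells carboplatin raised it to 71.3, 67.7 and 70.8 CPM, 2.01-fold (1.0 ± 0.04, adjusted p = 8.85e-92). Deprivation did not pass the test there (-0.12 ± 0.05, adjusted p = 0.062), although it was called lower with total counts (-0.14, adjusted p = 0.0399) and without wt -SG replicate 3 (-0.16, 0.0242). The deprivation response under carboplatin was larger in cis than in wt cells by 0.72 ± 0.16 (adjusted p = 0.000922) and smaller in cis SSP than in cis cells (-0.85 ± 0.19, adjusted p = 0.00062). ADM in cis SSP cells was at 4.31, 4.55 and 4.41 CPM with carboplatin and 3.59, 2.41 and 2.08 CPM without. The change was not called (0.77 ± 0.21, adjusted p = 0.135), but was called without library 25, which held the highest of the 3 untreated values (1.0, adjusted p = 4.43e-05).

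CA9 (ENSG00000107159, chr9:35673925-35681156, plus strand), a widely used marker of hypoxia, was counted 25, 28 and 36 times in wt libraries (1.38, 1.54 and 1.88 CPM). It was counted 7, 1 and 3 times with deprivation (log2 fold change -2.96 ± 0.39) and 7, 5 and 3 times with carboplatin (-2.44 ± 0.35), below every wt library in both. CA9 passed the filter in both comparisons through the wt libraries alone, where it is high. With no filter the adjusted p was 5.26e-13 for deprivation and 2.11e-11 for carboplatin (edgeR). In cis, cis carbo, cis -SG and cis SSP libraries it was counted 0 times. With a floor of 3 counts per library, CA9 was at least 9.2-fold lower in cis than in wt cells, and at least 8.51-fold lower in cis SSP than in wt cells. CA9 overlaps ARHGEF39 on the opposite strand, which was at 29.6 CPM in wt, 6.06 in wt carbo and 21.2 in wt -SG cells, and at 29.2 CPM in cis cells, where CA9 had no count. The strand setting of the counting is not given in the sources used here, and the part of the neighbour in the CA9 counts was not tested.

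BNIP3 (ENSG00000176171, chr10:133781188-133795471, minus strand) fell in several comparisons in which EPAS1 rose. In wt cells it went from 63.1, 65.1 and 62.6 CPM to 43.6, 44.6 and 45 under deprivation (-0.52 ± 0.04, adjusted p = 1.94e-09) and to 38.9, 38.7 and 42.4 with carboplatin (-0.66 ± 0.04, adjusted p = 7.37e-47). In cis cells under carboplatin deprivation lowered it from 48.7, 43.3 and 45.9 to 32.7, 34.2 and 36.4 CPM (-0.38 ± 0.06, adjusted p = 4.05e-05). Carboplatin in deprived wt cells, where EPAS1 rose too, gave no call for BNIP3 (0.15, adjusted p = 0.105). The deprivation response under carboplatin was lower in cis than in wt cells (difference -0.71 ± 0.11, adjusted p = 3.45e-05), and higher in cis SSP than in cis cells (0.36 ± 0.09, adjusted p = 0.00227).

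ANKRD37 (ENSG00000186352, chr4:186317175-186321782, plus strand) had 12 to 42 counts per library. In wt cells it was at 2.32, 1.71 and 1.73 CPM and fell under deprivation to 1.08, 1.27 and 1.03 CPM (-0.75 ± 0.23, adjusted p = 0.00976), a call lost with DESeq2 (adjusted p = 0.0786) and without wt replicate 1 (0.0656). It was also lower in cis than in wt cells (-0.80 ± 0.24, adjusted p = 0.00238), a call lost with DESeq2 (adjusted p = 0.0522). ANKRD37 overlaps UFSP2 on the opposite strand, which was at 22.9 CPM in wt, 24 in wt -SG and 22.8 in cis cells. The part of this neighbour in the ANKRD37 counts was not tested.

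**Figure D2:**
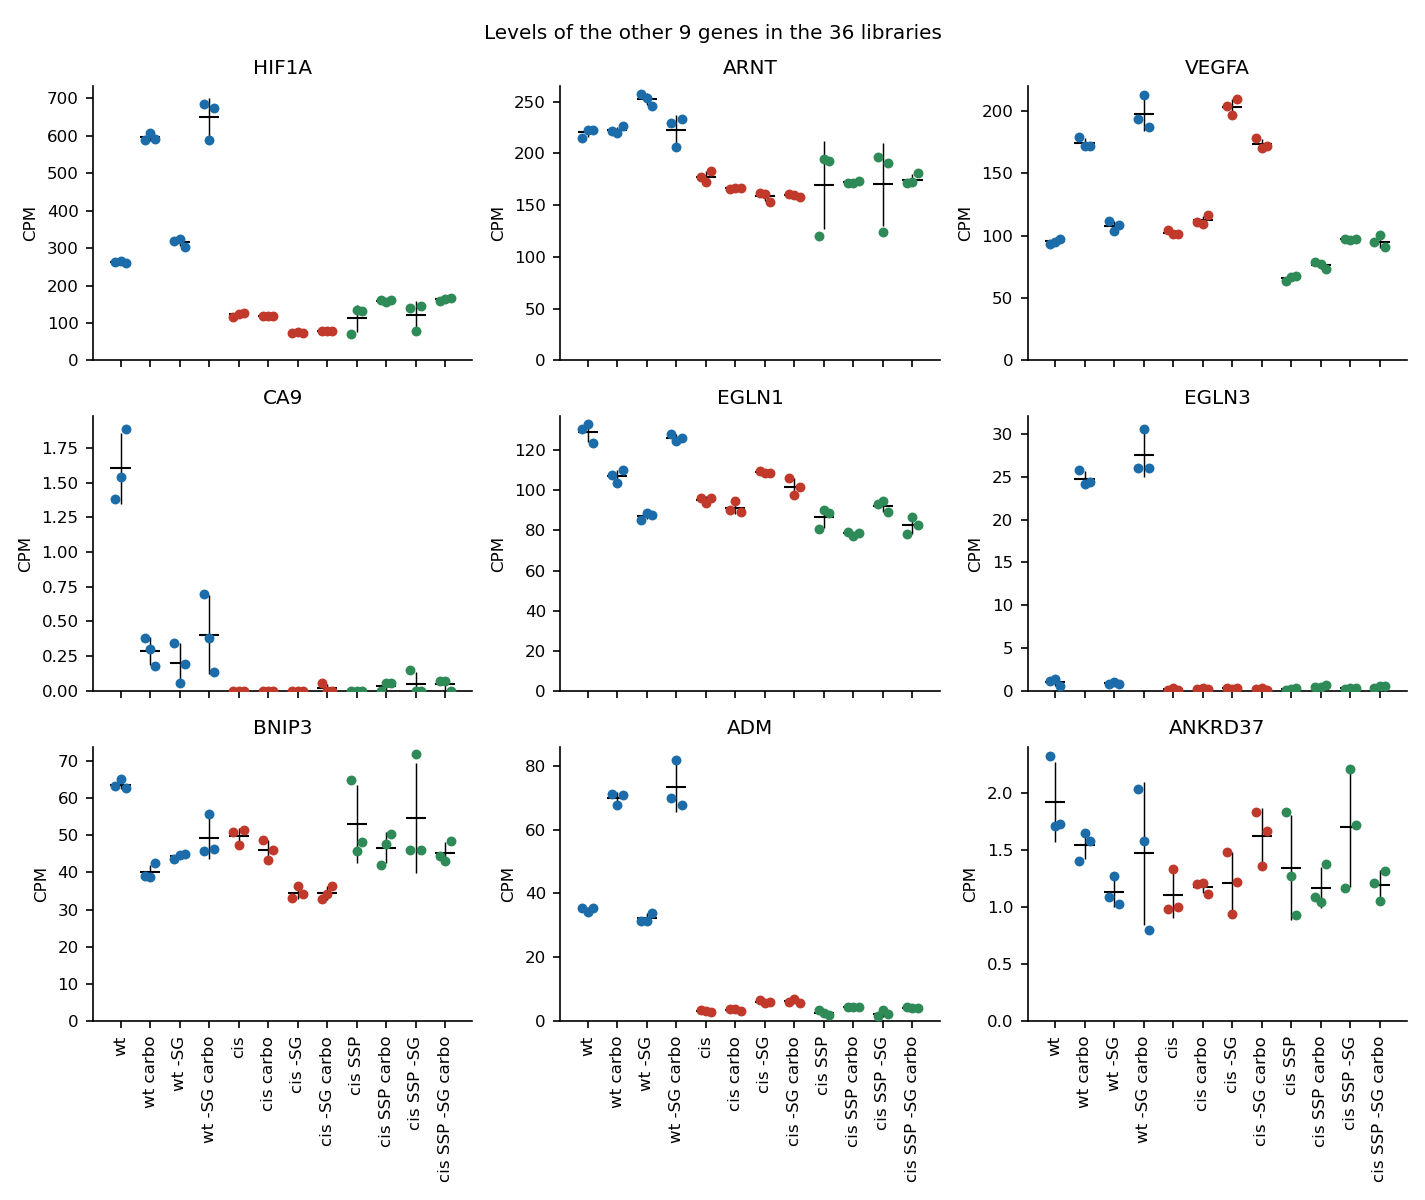
Level in CPM (linear axes from 0) of the other 9 genes in the 36 libraries by condition, with wt in blue, cis in red and cis SSP in green. Points are libraries, horizontal lines means of 3 and vertical lines SD. HIF1A, EGLN3 and ADM are highest in wt cells with carboplatin, VEGFA is also high in cis cells deprived of serine and glycine, and the low HIF1A and ARNT points in cis SSP conditions are libraries 25 and 32.

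Counted over the members, the deprivation response of wt cells was mixed, with 4 genes higher and 4 lower among 10 tested, where 49.1% of all genes tested passed (24% higher and 25.1% lower). CA9 and EGLN3 passed the filter there through 1 condition alone, and of the other 8 members 4 rose and 3 fell. Deprived cis cells under carboplatin had 6 of 8 tested members called, 4 higher and 2 lower, against 70.2% of all genes (35.2% higher and 35% lower). Without EPAS1, which passed through the deprived libraries alone, 3 of the other 7 rose and 2 fell. In cis SSP cells under carboplatin this was 1 of 8 (VEGFA), against 9.76%. In wt cells under carboplatin edgeR called 0 of 9, against 0.72% of all genes. Unadjusted p-values were under 0.05 for 3 of them (VEGFA, EGLN1 and BNIP3), and DESeq2 called 0. Without wt -SG carbo replicate 2 edgeR called 4 (HIF1A, VEGFA, EGLN1 and BNIP3, all higher), in a fit that called 1583 of 14715 genes. In cis SSP cells without carboplatin edgeR called 0 of 7, against 0.0218% of all genes, with an unadjusted p under 0.05 for 1 (VEGFA), which DESeq2 called. Without libraries 25 and 32 edgeR called 2, HIF1A and VEGFA, both higher, in a fit that called 4996 of 13925 genes.

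With carboplatin 8 of 10 members were called in wt cells, 5 higher and 3 lower, where 77.8% of all genes were called (38.9% higher and 39% lower). Of the 8 other than CA9 and EGLN3, which passed through 1 condition alone, 4 rose and 2 fell. In deprived wt cells it was 7 of 9, 6 higher and 1 lower, against 68.9% (34.3% and 34.6%). In cis cells 1 of 7 was called in complete medium (VEGFA, higher, against 20.1%) and 1 of 7 under deprivation (VEGFA, lower, against 22.4%), with EPAS1 left out of both. In cis SSP cells 1 of 8 was called in complete medium, against 2.72% of all genes. That was EPAS1, which passed through the carboplatin libraries alone, and 0 of the other 7 were called. Without library 25 it was 6, with HIF1A, ARNT, VEGFA, EGLN1 and ADM added, in a fit that called 5835 of 14170 genes. In deprived cis SSP cells edgeR called 0 of 8, against 1.47%, with an unadjusted p under 0.05 for 2 (EPAS1 and ADM), and DESeq2 called 0. Without library 32 edgeR called 5, which were EPAS1, HIF1A, ARNT, EGLN1 and ADM, in a fit that called 5679 of 13833 genes.

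Between lines, 8 of 8 members differed between cis and wt cells, 1 higher and 7 lower, against 78.5% of all genes (39.4% and 39.1%). Of these CA9 passed the filter through the wt libraries alone, which leaves 1 higher and 6 lower of 7. The higher gene was VEGFA, a call lost with DESeq2 (adjusted p = 0.154) and without wt replicate 1, wt replicate 2 or cis replicate 1 (up to 0.207). With both stresses 7 of 9 differed, all lower in cis, against 74.2% (37% and 37.2%), or 6 of 8 without EGLN3, which passed through the wt libraries alone. Cis SSP and cis cells differed in 1 of 7 in complete medium (29.1%) and in 7 of 8 with both stresses, 3 higher and 4 lower (73.8%, with 37.3% and 36.5%). Of the tests of a difference between responses, deprivation in cis SSP against wt cells called 1 of 10 (0.671%). Without libraries 25 and 32 it called 7 members, in a fit that called 4208 of 15433 genes. Deprivation under carboplatin called 5 of 9 in cis against wt cells, 3 higher and 2 lower (50.9%, with 23.4% and 27.6%), and 5 of 8 in cis SSP against cis cells, 2 higher and 3 lower (56.3%, with 30.4% and 25.9%). Carboplatin in cis against wt cells called 7 of 9, 2 higher and 5 lower (57.6%, with 30.3% and 27.2%). Without CA9 and EGLN3, which passed through 1 condition alone, it was 6 of 7, 2 higher and 4 lower. The summed fibroblast markers also differed between the lines compared here, with 8.12 to 22 CPM over the cis and 246 to 414 CPM over the cis SSP libraries, and their part was not tested. Several of these comparisons share libraries. Up to here each count of members called by edgeR stands beside the share or number over all genes in its own fit. Unadjusted and DESeq2 counts carry no share.

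**Figure D3:**
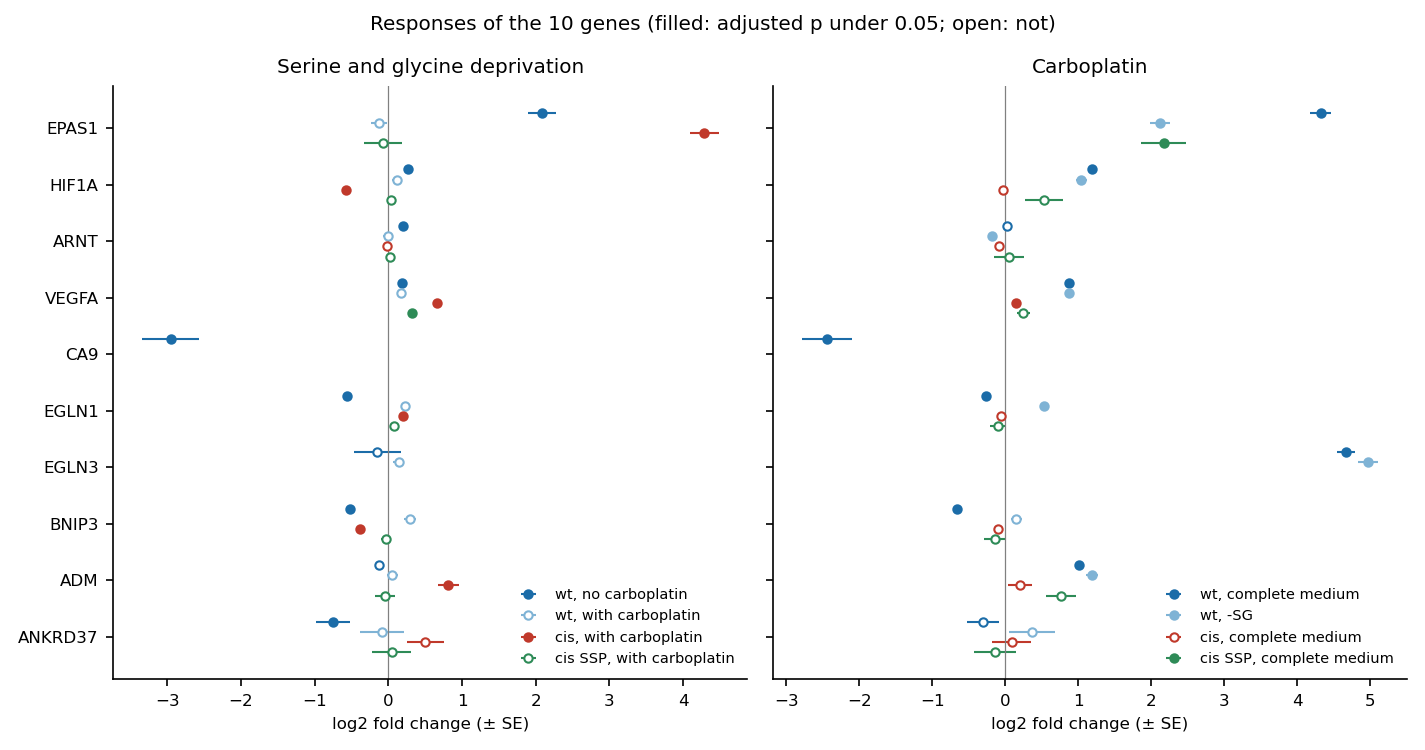
Fitted log2 fold changes with their standard errors for the 10 genes, for deprivation (left) and carboplatin (right), on linear axes. Colours mark wt cells (dark and light blue for the absence and presence of the other stress), cis cells (red) and cis SSP cells (green). Filled points have an adjusted p under 0.05, open points do not, and genes without a point could not be tested or have no test. EPAS1 is at 2.09 with deprivation in wt cells without the drug and at 4.29 in cis cells with it, and with carboplatin in wt cells EPAS1 is at 4.32 and EGLN3 at 4.67. The 4.29 and 4.67 belong to genes that passed the filter through the higher condition alone. So do EPAS1 with carboplatin in cis SSP cells (2.17) and CA9 in wt cells with deprivation (-2.96) and with carboplatin (-2.44). These filled points describe the libraries.

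The 56 other genes of the hypoxia pathway were grouped in 5 lists. Glycolysis targets moved against EPAS1 in the deprivation responses of wt cells without the drug and of cis cells under carboplatin. For cis -SG against cis cells, where EPAS1 also rose, this list is not given. In wt cells 14 of 15 fell and 0 rose, where 25.1% of all genes fell, and the median log2 fold change was -0.61 against 0.01 over all genes. In cis cells under carboplatin 10 of 13 fell and 2 rose, where 35% of all genes fell and 35.2% rose, with a median of -0.73 against 0.01. SLC16A3, the lactate exporter MCT4, fell in wt cells from 28.3, 32.8 and 29.2 to 13.3, 14.3 and 13.3 CPM (-1.14 ± 0.07, adjusted p = 4.71e-11). In cis cells under carboplatin ALDOC, a glycolytic aldolase, fell from 47.7 to 12.4 CPM (-1.9 ± 0.07, adjusted p = 7.81e-12), and PFKFB4, an enzyme that sets glycolytic flux, from 11.9 to 4.65 CPM (-1.32 ± 0.13, adjusted p = 3.51e-07). In cis SSP cells under carboplatin 1 of 13 rose and 4 fell, among them ALDOC (-0.44 ± 0.07, adjusted p = 0.000244), where 9.76% of all genes were called. In wt cells under carboplatin 1 of 15 rose and 0 fell (0.72% called). With carboplatin in wt cells 1 of 15 rose and 12 fell, where 38.9% of all genes rose and 39% fell.

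The list of other known targets split in both directions. In wt cells without the drug 5 of 21 rose and 13 fell with deprivation, where 24% of all genes rose and 25.1% fell. AK4, a mitochondrial adenylate kinase, fell from 17.6 to 8.16 CPM (-1.11 ± 0.09, adjusted p = 1.53e-09), and DDIT4, an inhibitor of mTORC1 signalling, rose from 45.9 to 77.7 CPM (0.76 ± 0.06, adjusted p = 1.00e-06). In cis cells under carboplatin 11 of 22 rose and 9 fell, and 35.2% and 35% of all genes did, so a split in both directions is also what all genes show. NDRG1 went from 4.3, 4.54 and 5.27 to 22.5, 19.6 and 18.9 CPM (2.15 ± 0.11, adjusted p = 4.19e-10) and DDIT4 from 39.2 to 115 CPM (1.6 ± 0.08, adjusted p = 1.35e-08). The genes that rose most in cis SSP cells were VLDLR, a lipoprotein receptor, and STC2, the secreted glycoprotein stanniocalcin-2. Under carboplatin VLDLR rose from 18.7 to 36.7 CPM (0.98 ± 0.06, adjusted p = 1.03e-11) and STC2 from 45.2 to 72.8 CPM (0.69 ± 0.04, adjusted p = 8.18e-12). Without the drug VLDLR went from 21.7 to 71.5 CPM and STC2 from 40.6 to 129 CPM, with adjusted p of 0.0408 and 0.0298 (edgeR). Both calls were lost whichever of the 6 libraries was left out, but each of those fits held library 25, library 32 or both and called 0 genes in all. The log2 fold changes in them stayed at 1.66 to 1.80 for VLDLR and at 1.64 to 1.69 for STC2. The fit without libraries 25 and 32 called 4996 of 13925 genes, and its values for VLDLR and STC2 are not given here. In wt cells under carboplatin 3 of 22 rose and 0 fell (0.72% of all genes called), P4HA2, a collagen prolyl hydroxylase, among them (0.51 ± 0.05, adjusted p = 0.00268).

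Of the 7 genes listed as preferring HIF-2, 4 were tested in most comparisons. With deprivation 2 rose and 1 fell in wt cells, and 3 rose and 1 fell in cis cells under carboplatin, where 49.1% and 70.2% of all genes were called. Among subunits and cofactors HIF3A, which encodes the third α subunit, rose in deprived wt cells from 3.49, 2.75 and 3.35 to 8.13, 7.79 and 8.3 CPM (1.33 ± 0.12, adjusted p = 1.76e-08). Of the 7 genes of oxygen sensing and degradation, 1 rose and 4 fell with deprivation in wt cells, against 49.1% of all genes called, and 1 rose and 5 fell in cis cells under carboplatin, against 70.2%. With carboplatin in wt cells 5 of them rose and 1 fell, against 77.8%. With so few genes these counts are given as descriptions.

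**Figure D4:**
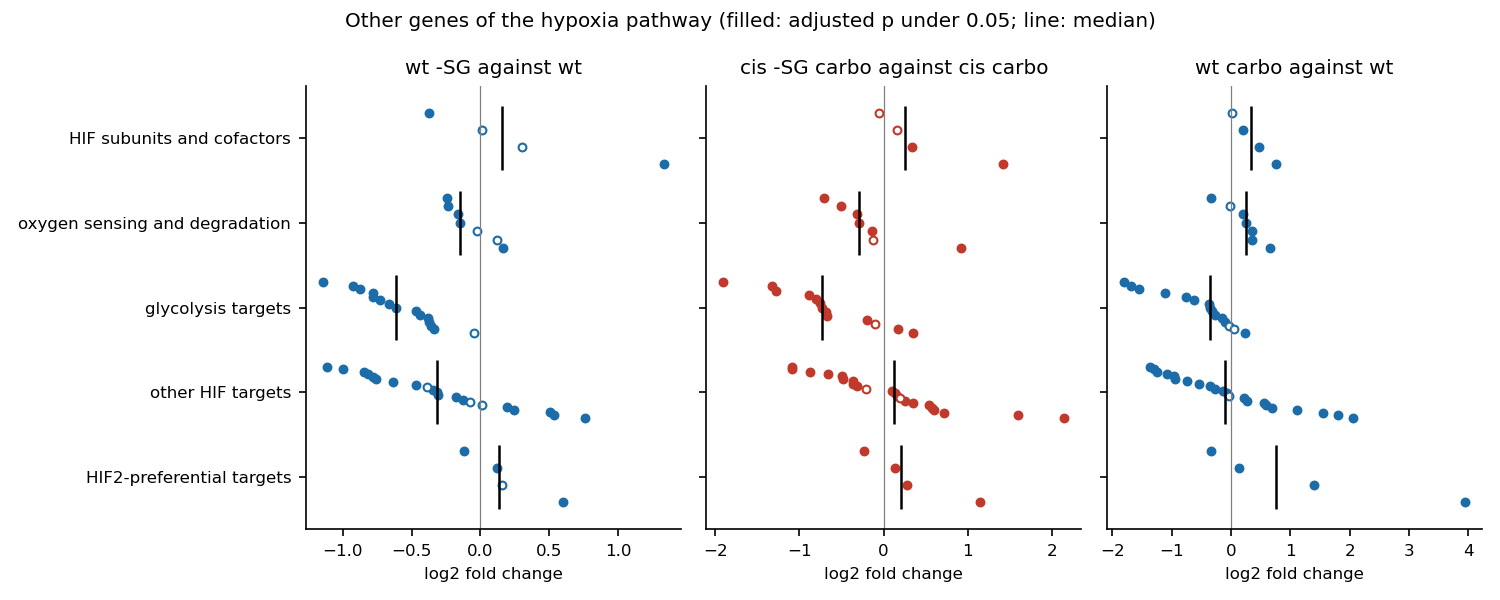
Log2 fold changes of the other hypoxia-pathway genes by list in 3 comparisons (linear axes, 1 point per gene). Filled points have an adjusted p under 0.05 and black lines are medians. Glycolysis targets lie mostly left of 0 in each comparison, with medians of -0.61, -0.73 and -0.36, while the other lists spread to both sides, except that all 4 subunits and cofactors tested lie above 0 with carboplatin in wt cells.

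Levels of stress readouts are given beside the members for some conditions, with no test. The p53 targets are given in complete medium only and the amino acid response without carboplatin only. How they ran over the other conditions is not shown. CDKN1A, a p53 target that halts the cell cycle, was at 140 ± 2.77 CPM in wt and 1777 ± 18.9 in wt carbo cells, at 91.1 and 321 CPM in cis and cis carbo cells, and at 59.8 and 378 CPM in cis SSP and cis SSP carbo cells. MDM2, the ubiquitin ligase of p53, was at 132 and 460 CPM in wt and wt carbo cells. Of the amino acid response, TRIB3 was at 201 ± 6.02 CPM in cis and 500 ± 9.62 in cis -SG cells, at 78.8 and 145 CPM in wt and wt -SG cells, and at 68.8 and 212 CPM in cis SSP and cis SSP -SG cells. DDIT3 (CHOP) was at 24.4 and 60.7 CPM in cis and cis -SG cells, and ASNS, the asparagine synthetase induced by ATF4, at 214 and 308. ATF4 itself was at 421 and 510 CPM in cis and cis -SG, and 522 and 499 in wt and wt -SG cells. The part of these responses in the levels of EPAS1 was not tested.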

How the data were processed

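RNA-seq libraries of wt, cis and cis SSP cells were grouped by the sample labels. According to the methods of the study, reads were aligned by STAR (GRCh37.p13) and counted by HTSeq over GENCODE v19, and the authors deposited raw counts per gene. The strand setting is not given in the sources used here. Totals on genes were 13074937 to 20441582 per library. The 3 rows that name no gene stayed out of library sizes (reads on no feature were 4.21% to 17.9%). Symbols and positions came from GENCODE v44 mapped to GRCh37 (55538 of 57820 identifiers). The members and lists were chosen with earlier results of these data known.

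Counts were tested with edgeR 4.0.16 (R 4.3.3) on the libraries of the compared conditions, with TMM, filterByExpr and robust quasi-likelihood fits, and Benjamini-Hochberg adjustment over all genes tested, called under 0.05. Differences of responses are interaction terms over 4 conditions. SE is the absolute log2 fold change divided by the square root of F, and a 95% interval is the estimate ± 1.96 SE. EPAS1 has no test in comparisons that use cis or cis -SG libraries. Of the other pathway genes, at most 2 called genes per direction are named for each deprivation comparison, those with the largest change among genes averaging 50 counts or more whose groups do not overlap. A gene that this rule names is not reported here. The fits were tested on simulated data. Libraries of a condition differed beyond sampling noise (mean chi-square 1.20 to 123 over 36 pairs), so all were kept. Alternatives were DESeq2 1.42.0, its size factors, total counts, no filter, at least 10 counts in every library, a single fit over all 36 libraries, and each library left out. Leaving out libraries 25 and 32, or 23 and 24, was added in part after seeing the data. Python 3.11.15, pandas 2.3.3 and matplotlib 3.10.9 were used.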

Additional observations from a re-analysis of the deposited data

Results flagged for a closer look

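The results here are differences in response between lines that passed the interaction test (edgeR, adjusted p under 0.05), in log2 units. For deprivation under carboplatin in cis against wt cells they were EPAS1 (4.38), HIF1A (-0.72), VEGFA (0.46), BNIP3 (-0.71) and ADM (0.72). For cis SSP against cis cells the same 5 genes passed, with EPAS1 at -4.35, HIF1A at 0.63, VEGFA at -0.33, BNIP3 at 0.36 and ADM at -0.85. The latter comparison shares the cis libraries with the former, and in both the EPAS1 value is not independent of the choice of genes. For carboplatin in cis against wt cells in complete medium, with EPAS1 left out, they were HIF1A (-1.22), ARNT (-0.10), VEGFA (-0.72), EGLN1 (0.21), EGLN3 (-4.1), BNIP3 (0.57) and ADM (-0.80). EGLN3 passed the filter on low counts in that fit through the wt carbo libraries alone, and its value is a description. ARNT lost this call with total counts (-0.04, adjusted p = 0.342) and without wt carbo replicate 3, cis replicate 1 or cis carbo replicate 3 (adjusted p = 0.0571 to 0.11). For deprivation without carboplatin in cis SSP against wt cells it was EGLN1 (0.66). Groups of 3 libraries were not searched for single outlying values.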

How the results depend on the processing

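Counts of members called moved by more than 1.5 times as follows, and the cause was not tested. With DESeq2 it was 1 for deprivation in cis SSP cells without carboplatin (105 of 14769 genes called). For the difference of that response between cis SSP and wt cells it was 2 (513 of 14318 genes). That difference gave 0 with total counts, 0 with no filter, 2 with a single fit over the 36 libraries and 7 without libraries 25 and 32. Over all genes these fits called 116 of 15202, 22 of 32360, 1135 of 16677 and 4208 of 15433. The single fit gave 1 for deprivation in cis SSP cells without the drug and 1 for deprivation in wt cells under carboplatin. Of 16677 genes 1532 and 86 were called there. It gave 0 for carboplatin in cis cells (401 genes in complete medium, 1141 under deprivation). For carboplatin in cis SSP cells it gave 6 in complete medium and 3 under deprivation, where 3089 and 2860 genes were called. It gave 2 for cis SSP against cis cells (7980 genes). Carboplatin in cis cells gave 2 with total counts and 2 with no filter. Over all genes these settings called 2629 of 13458 and 2691 of 28039 in complete medium, and 3137 of 14476 and 4190 of 31411 under deprivation. Deprivation in wt cells under carboplatin gave 1 with no filter (545 of 30967 genes). Carboplatin in cis SSP cells gave 0 with at least 10 counts in every library (318 of 12761 genes). EPAS1, the only member called for that response, had 3, 6 and 7 counts in cis SSP libraries and could not enter that fit. Deprivation in cis SSP cells without the drug gave 2 without libraries 25 and 32 (4996 of 13925 genes). With each library left out, counts ran from 0 to 4 for deprivation in wt cells under carboplatin, 1 to 2 for carboplatin in cis cells in either medium, 0 to 6 for carboplatin in cis SSP cells (6 without library 25), 0 to 5 under deprivation (5 without library 32), 1 to 4 for cis SSP against cis cells (4 without library 25) and 0 to 1 for the difference of the deprivation response between cis SSP and wt cells. Over all genes the numbers called in these fits ran from 0 to 1583 for deprivation in wt cells under carboplatin. For carboplatin they ran from 1755 to 2554 in cis and from 9 to 5835 in cis SSP cells in complete medium. Under deprivation they ran from 1666 to 5224 in cis and from 0 to 5679 in cis SSP cells. For cis SSP against cis cells they ran from 1995 to 9262 (9262 of 14154 without library 25), and for the difference from 12 to 198. The fitted EPAS1 change of cis -SG against cis cells ran from 5.45 to 5.59 with a library left out. Directions turned for ARNT with carboplatin in cis SSP cells (-0.15 without library 25, up to 0.17 otherwise, and -0.12 without library 32, up to 0.17 otherwise), for HIF1A (0.13, down to -0.30) and ARNT (0.14, down to -0.21) in cis SSP against cis cells without library 25, and for ARNT in cis SSP against cis cells with both stresses with total counts (-0.0246). Total counts moved the median of all genes by 0.148 (cis against wt, both stresses), -0.135 (cis SSP against cis, both stresses), 0.118 and -0.115 (the differences of the deprivation response under carboplatin in cis against wt and cis SSP against cis cells). They turned the split of higher and lower calls over all genes from 5332 and 5229 to 4271 and 6377 in the second, from 3661 and 4318 to 4527 and 3469 in the third, and from 4487 and 3826 to 3444 and 4874 in the last. No paired analysis was possible because the labels carry no replicate numbers that tie libraries of different conditions. Of 1109 further values under other settings 1047 kept direction and side of the threshold, and of 1266 with a library left out 1195 did. Members with few counts (CA9, ANKRD37, and EGLN3 and EPAS1 in cis and cis SSP cells) are limited by depth.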
